A study of Drosophila melanogaster with 2 samples.

Results

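The genes described here encode the Rab, Arf and Arl families of small GTPases of Drosophila melanogaster. They were chosen by symbol alone, as protein-coding genes named Rab, RabX, Arf or Arl plus digits and optional letters. This gave 42 of 13945 protein-coding genes, namely 28 Rab, 5 RabX, 3 Arf and 6 Arl genes. The assay was ChIP-seq of the cold-shock domain protein CG9705 in whole wandering larvae in the third instar of 1 transgenic line, which expressed CG9705 with GFP at its C terminus, with the sexes pooled. There was 1 group of 2 biological replicates and no second genotype, stage or treatment, so each replicate alone serves as the error of a result. The promoter that drives the fusion is not given in the sources used here, and tissues were mixed, so a peak cannot be placed in a cell type. The free-text description of both libraries calls them an input control, against their antibody field, assay title and separate control, and they are treated as ChIP samples.

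Rab, Arf and Arl proteins are molecular switches of membrane traffic. Bound to GTP they sit on one kind of membrane and recruit coats, motors and tethers, and on hydrolysis of GTP they return to the cytosol. Exchange factors load them with GTP and GTPase-activating proteins switch them off. Larval tissues such as the fat body, salivary gland and nephrocytes depend on this traffic for uptake and secretion.

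The deposited peak lists are on dm6. They hold 30000 relaxed peaks for each replicate, 30000 for the pool of both, and 3533 in the optimal set. The optimal set passed the authors' filter for reproducibility and equals the 3533 best pooled peaks. The relaxed lists are labelled as peaks and background, the input of that filter. Their entries outside the optimal set may therefore be background. A gene was counted as bound if any start of its transcripts had the summit of an optimal peak no more than 500 bp away. Negative positions are upstream of the start. Ranks run from 1, the strongest peak of a list by the authors' own score, whose unit is not stated. The files give no read counts, so the depth is unknown.

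The sequences at the optimal summits of these genes are printed in part, with none for Rab39, RabX1, Arl2 and the weaker Rab5 peak. Each is up to 100 bases of the RefSeq Release 6 genome (dm6 coordinates) centred on the pooled summit, cut to the part outside annotated exons and written on the coding strand of the named gene. Capitals mark exact matches on either strand to any of 10 searched motifs. Those found were the TATA box TATAAA, the E-box CAGCTG, the DNA replication-related element (DRE) TATCGATA, and CGATA, the core of sites of the insulator protein BEAF-32, which every DRE contains. The DRE is a core promoter element of housekeeping genes and the binding site of the factor DREF. The pieces are chr3L:15982958-15983057 (plus strand) for Arl1, chr2L:2363715-2363814 (minus) for Rab5, chr3L:19871079-19871130 (minus) for Rab8, chr3R:21111211-21111310 (plus) for Rab11, chrX:12463131-12463230 (minus) for Rab40 and chr3R:8126361-8126460 (plus) for Arl8.
Arl1: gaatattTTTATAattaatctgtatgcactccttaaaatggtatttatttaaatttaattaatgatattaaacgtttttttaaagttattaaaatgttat
Rab5: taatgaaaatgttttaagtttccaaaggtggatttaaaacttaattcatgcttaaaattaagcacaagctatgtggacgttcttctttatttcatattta
Rab8: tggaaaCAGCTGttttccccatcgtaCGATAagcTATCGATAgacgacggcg
Rab11: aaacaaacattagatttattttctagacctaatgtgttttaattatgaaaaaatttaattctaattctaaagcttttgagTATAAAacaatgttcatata
Rab40: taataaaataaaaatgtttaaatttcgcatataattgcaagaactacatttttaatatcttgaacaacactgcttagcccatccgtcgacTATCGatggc
Arl8: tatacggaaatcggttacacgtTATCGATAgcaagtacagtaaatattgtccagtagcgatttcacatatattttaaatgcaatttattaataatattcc

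Of the 42 genes, 9 were bound (21.4%), close to the 19.1% of all protein-coding genes. Counting the 3533 best peaks of replicate 1 alone gave 6 genes (14.3%) against a background of 18.2%, and those of replicate 2 alone gave 11 (26.2%) against 19.7%. The bound share was near the background in the optimal set and on either side of it in single replicates. The bound genes were Arl1, Rab5, Rab39, Rab8, Rab11, RabX1, Arl2, Rab40 and Arl8, in order of score. They spanned a wide range of strength, from rank 35 to rank 3509, next to the end of the optimal set.

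Peaks just below the optimal set were more frequent at these genes. For 17 genes (40.5%) the best promoter summit ranked from 3534 to 7500 in the pooled list, against 13.6% of all protein-coding genes. Another 5 (11.9%) had their best summit below rank 7500, against 21.2%. In all, 31 of 42 (73.8%) had a pooled summit at a transcript start, against 53.9%, and the same 31 genes (73.8%) had a summit there in both replicates, against 45.8%. These shares are descriptions with no test, and the rank limit of 7500 was chosen with results of these data known. With the band ended at rank 5000 it held 6 of the 42 genes, against 5.44% of all protein-coding genes. With the end at rank 10000 it held 18 of the 42, against 18.6% of all protein-coding genes.

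**Figure D1:**
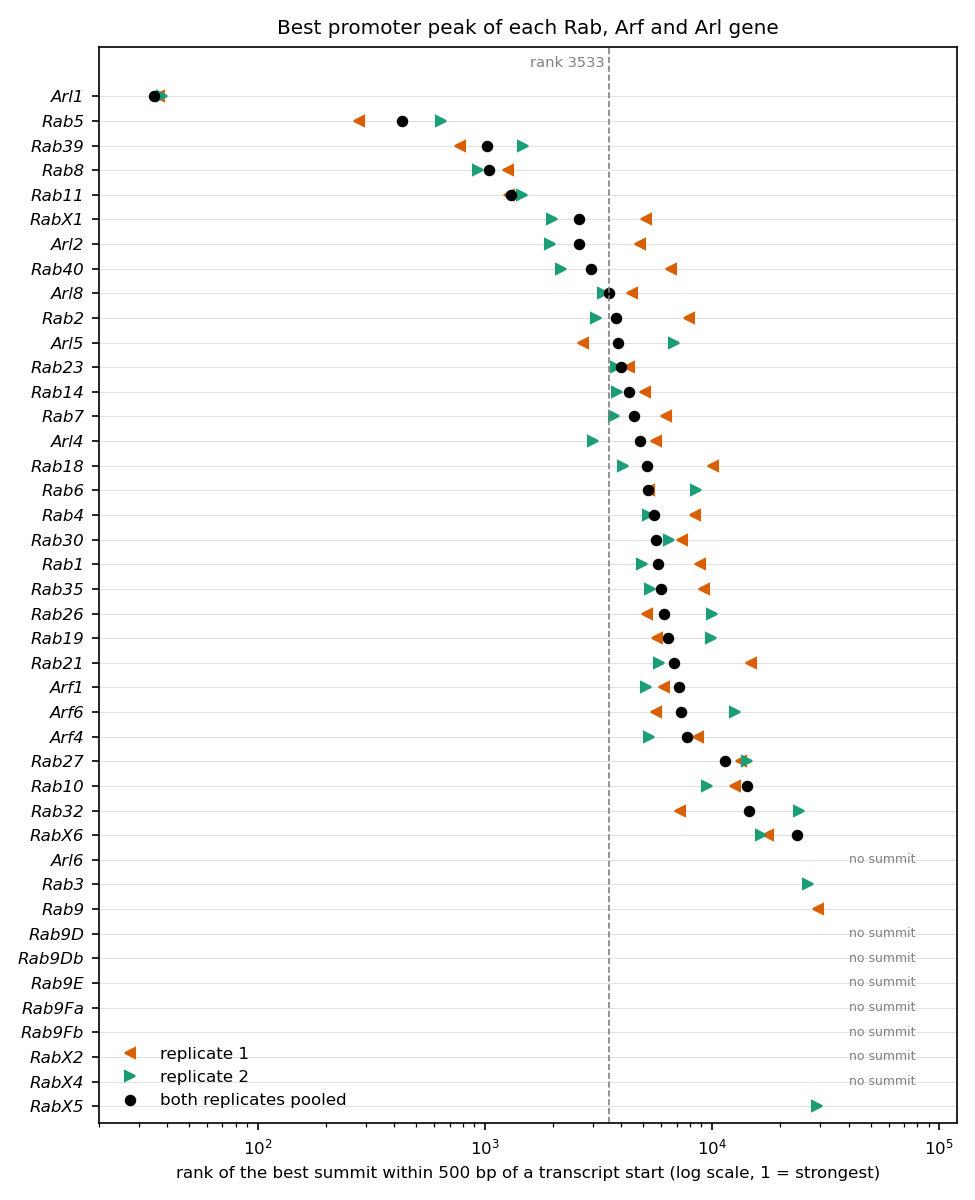
Rank of the best summit within 500 bp of a transcript start for each of the 42 genes (rows), on a log axis where 1 is the strongest peak. Circles are the pooled list and triangles the replicates. The dashed line is rank 3533, the end of the optimal set, and 17 genes follow it in a dense band that ends at rank 7290.

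Of the 9 GTPases grouped here under the Golgi and the transport from the endoplasmic reticulum to it, 1, Arl1, was bound. The share of all protein-coding genes was 19.1%. The peak of Arl1 was the strongest of the whole family. Arl1 recruits golgin tethers to the trans-Golgi. Its score was 541 in replicate 1 (rank 37), 670 in replicate 2 (rank 38) and 1217 in the pool (rank 35). The summit lay at -127 bp in the pool, at -128 bp in replicate 1 and at -149 bp in replicate 2, so both replicates put the peak in the same place and at nearly the same rank. The peak is in the 266 bp between the start of Arl1 and that of brm, which encodes the motor subunit of SWI/SNF chromatin remodellers, and its summit is at -139 bp from brm.

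All of the other 8 genes placed in the Golgi group had a promoter summit below the optimal set and in both replicates. Of all protein-coding genes, 53.9% had a pooled promoter summit of any rank and 45.8% had one in both replicates. They were Rab2, Arl5, Rab18, Rab6, Rab30, Rab1, Arf1 and Arf4, with best pooled ranks from 3790 to 7790. Rab2, which acts in transport between the Golgi and the endoplasmic reticulum and in late endosomal fusion, was the first gene outside the optimal set. It had a pooled score of 93.5 at -53 bp, 25.1 in replicate 1 (rank 7969) and 63.5 in replicate 2 (rank 3091). The pooled summit lay nearer to the start of Mob4, a head-to-head neighbour 78 bp away, than to that of Rab2. Arl5, a trans-Golgi GTPase, followed with a pooled score of 92.1 at 48 bp, 55.1 in replicate 1 (rank 2698) and 35.2 in replicate 2 (rank 6822). The replicates thus ordered this pair in opposite ways. Arf1, the GTPase that assembles COPI coats, had 3 pooled summits spread over its 5 transcript starts, the best at rank 7136. That best summit had no replicate 1 summit within 250 bp. Arf4, an Arf of the Golgi, had its best summit at rank 7790. It was at -215 bp in the pool, but at 33 bp in replicate 1 and -220 bp in replicate 2.

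Among the endosomal and lysosomal GTPases 3 of 10 were bound, against 19.1% of all protein-coding genes. Rab5, which drives fusion of early endosomes, was the only gene of the family with more than 1 optimal summit. Its stronger peak scored 221 in replicate 1 (rank 281), 180 in replicate 2 (rank 644) and 404 in the pool (rank 432). It lay 261 bp upstream of an internal start at chr2L:2363504, which is an intronic position for the longer transcripts. The weaker one scored 63.4 in replicate 1 (rank 2224), 50.9 in replicate 2 (rank 4130) and 116 in the pool (rank 2863), at 44 bp from the start at chr2L:2361855. At the first start of Rab5, which faces Axud1 across 72 bp, there was only a relaxed peak (rank 9715). The optimal peaks of Rab5 were therefore at its internal starts and not at the promoter it shares with its neighbour.

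Rab11, the GTPase of recycling endosomes, had a score of 95.2 in replicate 1 (rank 1277), 109 in replicate 2 (rank 1462) and 207 in the pool (rank 1310). The summit was at -147 bp in the pool, -83 bp in replicate 1 and -141 bp in replicate 2. No other protein-coding gene had a start within 500 bp of it. Rab11 was the only bound gene of the family with no head-to-head neighbour. Arl8, which moves lysosomes along microtubules, was the last gene inside the optimal set, with a score of 37.8 in replicate 1 (rank 4447), 60.6 in replicate 2 (rank 3302) and 99.0 in the pool (rank 3509, at -194 bp).

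The other endosomal genes were Rab14, Rab7, Rab4, Rab35, Rab21 and Arf6, with best pooled ranks from 4311 to 7290, and Rab9. Rab7, the late endosomal GTPase, had pooled summits at 2 of its starts, the better one at 15 bp with rank 6264 in replicate 1, 3704 in replicate 2 and 4524 in the pool. Rab9, which acts in return of receptors from late endosomes, had no pooled promoter summit and a single one at rank 29256 of replicate 1.

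Of the 5 GTPases of secretion and synaptic vesicles 1, Rab8, was bound, a share near the 19.1% of all protein-coding genes. Rab8, which carries cargo from the Golgi to the plasma membrane, had a score of 95.9 in replicate 1 (rank 1263), 145 in replicate 2 (rank 931) and 241 in the pool (rank 1044). Its summit sat almost on the start, at -3 bp in the pool, -13 bp in replicate 1 and 6 bp in replicate 2. Rab26 (rank 6152), Rab27 (rank 11374) and Rab10 (rank 14251) had relaxed pooled summits. Rab3, the synaptic vesicle Rab, had none, and its single summit in replicate 2 ranked 26558.

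Of the 13 genes with other or less certain roles 4 were bound, against 19.1% of all protein-coding genes, and Rab39 was the strongest of them. Rab39 scored 130 in replicate 1 (rank 775), 109 in replicate 2 (rank 1475) and 243 in the pool (rank 1027). Its pooled summit lay at -338 bp, but at 66 bp inside Pdp, a pyruvate dehydrogenase phosphatase gene that starts 272 bp away on the other strand. The 100 bases around it are all annotated as exon, so this peak lay nearer to Pdp than to Rab39. A weaker summit, at -138 bp from Rab39, ranked 4409.

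RabX1, Arl2 and Rab40 were close to each other in the pool, with scores of 124, 124 and 114. RabX1 scored 34.0 in replicate 1 (rank 5151) and 88.3 in replicate 2 (rank 1985), with a pooled summit at -132 bp. Arl2, which acts with the tubulin-folding machinery, scored 35.5 in replicate 1 (rank 4830) and 89.6 in replicate 2 (rank 1942), with a summit at 4 bp. Rab40 scored 28.6 in replicate 1 (rank 6612) and 82.3 in replicate 2 (rank 2167), with a summit at -69 bp. For all 3 and for Arl8 the rank was inside the best 3533 in replicate 2 and outside it in replicate 1. Only Arl1, Rab5, Rab39, Rab8 and Rab11 ranked inside the best 3533 in both replicates. Within these 5, Arl1 and Rab5 came first and second in both replicates. The order of the other 3 changed, with Rab39 before Rab8 and Rab11 in replicate 1, and after both in replicate 2.

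Rab23 (rank 3982), Arl4 (4837) and Rab19 (6382) fell in the band below the optimal set. Rab23, which acts in planar cell polarity of the wing, had a score of 38.6 in replicate 1 (rank 4312), 54.4 in replicate 2 (rank 3801) and 89.7 in the pool. Its summit was at -355 bp, in the 421 bp that separate it from plx, which encodes a TBC-domain protein of the kind that switches Rabs off. The summit lay nearer to the start of plx than to that of Rab23. Rab32, the GTPase of pigment granules known in the fly as lightoid, had 3 weak pooled summits, the best at rank 14577, and RabX6 ranked 23751.

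The other 11 genes had no pooled promoter summit. They were Rab3, Rab9, Arl6, RabX2, RabX4, RabX5 and the Rab9 copies on the X, Rab9D, Rab9Db, Rab9E, Rab9Fa and Rab9Fb. Arl6, a GTPase of ciliary traffic, RabX2, RabX4 and all 5 copies also had no summit in either replicate. Strong peaks near some of them belonged to neighbours. The nearest pooled summit to Arl6 was 1861 bp away at RpL11 (rank 355), that to RabX5 1395 bp away at RpL23A (rank 192), and that to RabX4 1686 bp away at Kaz and CG43273 (rank 1251).

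The absence of peaks at the Rab9 copies is uncertain. Within 250 bp of the start, 38.6% of 31-base words of Rab9D, 67.3% of Rab9Db, 73.9% of Rab9E and 78.8% of Rab9Fa occur more than once on the chromosome arms, and reads from such words may not have been placed. The share was 8.07% for Rab9Fb and at most 8.07% for each of the other 37 genes. How the authors treated reads that map to several places is not given in the sources used here.

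**Figure D2:**
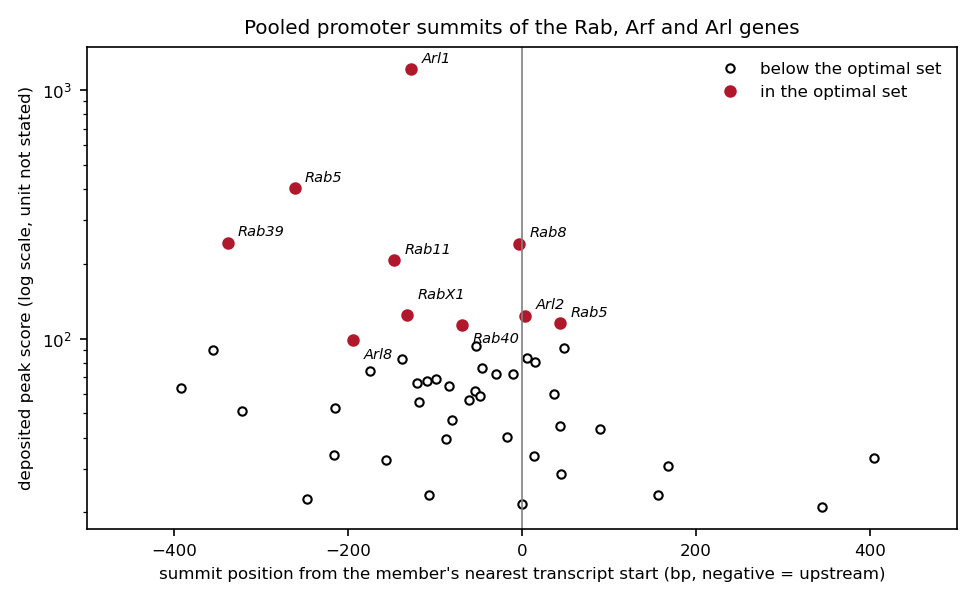
Position of the 48 pooled summits within 500 bp of a start of these genes (x axis, bp from the nearest start of the gene, negative upstream) against the authors' score (y axis, log scale, unit not stated). Filled circles are the 10 optimal summits, with their genes named. The strongest ones are upstream, while Rab8 and Arl2 sit at the start.

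The summits lay mostly upstream of the starts. Of 10 optimal summits, 8 were upstream (80.0%), with a median position of -129.5 bp. Over all protein-coding genes, 88.9% of the pairs of a gene and an optimal summit off its start were upstream, with a median of -127 bp over 2872 pairs, in which a shared summit counts once for each gene. Of 48 pooled summits of the family, 33 were upstream, 14 downstream and 1 at the start, and 25 lay in the 200 bp before it (52.1%, against 43.2% of such pairs for all protein-coding genes). Of 38 pooled summits outside the optimal set, 19 (50%) lay there, against 37.1% of pairs.

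The replicates placed the strong summits close together. All 10 optimal summits had a summit of each replicate within 250 bp, and the replicates' positions differed by a median of 24.5 bp and by at most 66 bp (Arl2). Over 40 of the 48 pooled summits matched in both replicates the median difference was 43.5 bp. Scores of these 40 summits correlated between replicates, with a Spearman rank correlation of 0.587 and a Pearson correlation, taken after log2 transformation, of 0.759. This is a description across sites of the same 2 libraries, and a replicate summit could match more than 1 pooled summit.

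Of the 9 bound genes, 7 had an optimal summit that also lay within 500 bp of a start of another protein-coding gene (77.8%). The same held for 1686 of all 2661 bound protein-coding genes (63.4%), so a shared peak was usual among bound genes. The pairs were Arl1 with brm, Rab39 with Pdp, Rab8 with Usp32, a ubiquitin-specific protease, RabX1 with mi, Arl2 with COX7A, a cytochrome c oxidase subunit, Rab40 with CG42258, and Arl8 with CG9667. The starts of each of these 7 pairs are on opposite strands and 57 to 416 bp apart. At the Arl2 pair, the summit was 4 bp inside Arl2 and 61 bp upstream of COX7A, and at the Arl8 pair it was nearer to CG9667 (-54 bp) than to Arl8 (-194 bp). When each peak was given only to the gene with the nearest start, 6 genes stayed bound, and Rab39, RabX1 and Arl8 did not.

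A head-to-head neighbour, that is an opposite-strand protein-coding start within 500 bp upstream, was found for 21 of the 42 genes (50%), against 27.4% of all protein-coding genes. Of these 21 genes 8 were bound (38.1%), near the 41.1% of all head-to-head genes, and all 21 had a relaxed pooled summit, against 79.1%. Of the 21 genes with no such neighbour, 1 was bound (4.76%, against 10.8%) and 10 had a relaxed pooled summit (47.6%, against 44.4%). Rab5 is counted among the 8 for its first start, although its optimal summits lie at other starts. The counts are small, and the differences from other genes were not tested.

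No optimal summit lay inside these genes away from promoters. The pooled list had 33 summits within 20 of the genes and more than 500 bp from any transcript start, 17 in introns and 16 in exons. The highest were in introns, at 626 bp from a start of Rab14 (rank 3678), at 1177 bp in Rab11 (rank 3740) and at 971 bp in RabX1 (rank 4040).

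Of the 10 motifs searched, the DRE differed most in share between the promoters of these genes and all promoters. The motifs were chosen with earlier results of these data known, and the differences were not tested. Among 10 motifs searched on both strands from 250 bases upstream to 50 downstream of the first start, TATCGATA was found in 14 of 42 genes (33.3%), against 9.36% of all 13945 promoters. CGATA, which includes every DRE, was found in 27 (64.3%, against 47.4%). The TATA box TATAAA was found in 12 (28.6%, against 45.8%), the GAGA element GAGAG in 5 (11.9%, against 29.7%) and core promoter motif 1, GGTCACACT, in 1 (2.38%, against 6.05%). The shares of the inverted CCAAT box ATTGG (50% against 46.7%), the initiator TCAGT (50% against 51.5%) and the E-box CAGCTG (14.3% against 17.7%) were near those of all promoters. The E-box CACGTG was found only in Rab14 and the Y-box CTGATTGG, which contains ATTGG, only in RabX1, against 4.20% and 1.28%.

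All 14 genes with a DRE had a promoter summit. They were Rab8, Arl2, Rab40 and Arl8 in the optimal set, Arl5, Rab14, Rab19, Rab2, Rab30, Rab35, Rab6 and Rab7 in the band from rank 3534 to 7500, and Rab27 and RabX6 below it. Of the 28 genes without a DRE 17 had a summit (60.7%). Over all protein-coding genes 81.0% of those with a DRE and 51.1% of those without had a pooled summit. All of the 14 genes with a DRE except Rab35 and Rab19 also had a head-to-head neighbour. All 21 head-to-head genes of the family had a pooled summit, with or without a DRE. The part of such a neighbour in the contrast by DRE was not tested. Of the 5 best-ranked genes only Rab8 held a DRE. CGATA was in 8 of the 9 bound genes (88.9%, against 57.8% of all bound genes) and in 14 of the 17 genes of the next band (82.4%, against 58.2%). Of the 11 genes without a summit, 1 held CGATA (RabX5) and none a DRE.

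The DRE was searched only from 250 bases upstream to 50 downstream of the first start. Its nearness to the start was therefore limited by the search and is not a finding. Within this window the median position of the DRE was -44.5 bp, from -219 bp at Arl8 to 11 bp at Arl5. It was 4 to 84 bp from the nearest pooled summit, with a median of 37.0 bp. In 8 of the 14 genes it was within 50 bp of that summit. Rab35 held 2 DREs in the window, and only the one at -8 bp entered these values. Such distances were not taken for other promoters or other motifs, so whether the DRE was closer to summits than other sequences was not tested. The 30 bases around the DRE of 7 genes in the band below the optimal set are given with the 8 bases of the DRE, for which they were picked, in capitals on the coding strand. They are from chr3L:8299814-8299843 (minus) for Arl5, chr2L:14355053-14355082 (plus) for Rab14, chr3R:23992980-23993009 (plus) for Rab7, chr2L:12109150-12109179 (minus) for Rab6, chr2L:7032635-7032664 (minus) for Rab30, chrX:20159866-20159895 (minus) for Rab35 and chr3L:8296987-8297016 (plus) for Rab19.
Arl5: ctgcccgcagtTATCGATAgcagcactatc
Rab14: cgtgcgccctcTATCGATAgacacgattgt
Rab7: cacgactgcacTATCGATAaccagtactga
Rab6: aaatatgcgttTATCGATAgcgtggcagag
Rab30: aaacgtcgatcTATCGATAccgagaaaaac
Rab35: ctatcctaaacTATCGATAgcataaacatc
Rab19: gtaaaatggaaTATCGATAtatgagcttcg

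**Figure D3:**
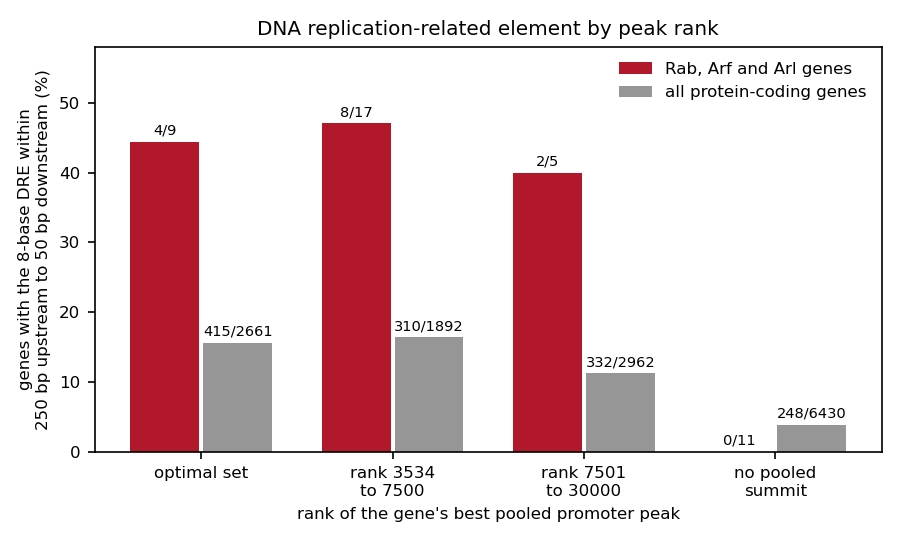
Share of genes with the DRE TATCGATA in the promoter (y axis, %), by the rank of the gene's best pooled promoter peak (x axis), for the Rab, Arf and Arl genes and for all protein-coding genes, with counts above the bars. The family has 4 of 9, 8 of 17, 2 of 5 and 0 of 11 genes with a DRE, against 15.6%, 16.4%, 11.2% and 3.86% of all genes in the same classes.

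The share of A and T at the summit varied among the bound genes. The 100 bases at the summit were 85% A or T for Arl1, 81% for Rab39 and for Rab11 and 74% for the stronger Rab5 peak, as the sequences printed for Arl1, Rab5 and Rab11 show. Over all 1962 optimal promoter peaks the median was 67% (interquartile range 59 to 73%). At Rab8 the share was 54%, and at the weaker Rab5 peak 57%. The other bound genes lay between 69 and 71%. Over the 38 pooled summits of the family outside the optimal set the median was 63.5%, against 60% for all such summits.

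Regulators, effectors and coats that work with these GTPases were counted in the same way. Of 127 names on 5 lists of related genes, 121 were matched to protein-coding genes. Among 15 exchange factors 8 were bound (53.3%, against 19.1% of all protein-coding genes), with the highest scores at Mon1 (367), which with the also bound Ccz1 activates Rab7, garz (323), an exchange factor for Arf1, spri (299), which acts on Rab5, and strat (290). Among 18 GTPase-activating proteins 8 were bound (44.4%), led by CenG1A (1293, rank 31), an ArfGAP whose peak ranked just ahead of that of Arl1. Rab3GAP1 (357), GAPcenA (213) and ArfGAP3 (202) followed.

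Among 34 effectors, tethers and recycling factors 17 were bound (50%). The bound share of all protein-coding genes, for this list and the next ones, was 19.1%. The highest effector scores were at Rbsn-5 (543), the Rab5 effector Rabenosyn, Sec5 (341) and Sec3 (240) of the exocyst, and didum (324), a myosin V motor. Gdi and Rep, which extract Rabs from membranes and present them for lipid attachment, were both among the bound genes. Among 30 coat, adaptor and retromer genes 15 were bound (50%), led by alphaCOP (380) of the COPI coat, AP-1sigma (355), cm (283) of the AP-3 adaptor and AP-2alpha (260). Among 24 other small GTPases 8 were bound (33.3%), among them Mtl (1313), a Rac-like GTPase, and Ric (182).

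Head-to-head genes made up 44.1% of the effectors, 53.3% of the exchange factors, 60.0% of the coats, 72.2% of the activating proteins and 50% of the other small GTPases, against 27.4% of all protein-coding genes. Of all head-to-head genes 41.1% were bound, against 10.8% of genes with no such neighbour. The part of a head-to-head neighbour in the counts of these lists was not tested. The lists were drawn up with earlier results of these data known, and the differences between them and the Rab, Arf and Arl genes were not tested.

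**Figure D4:**
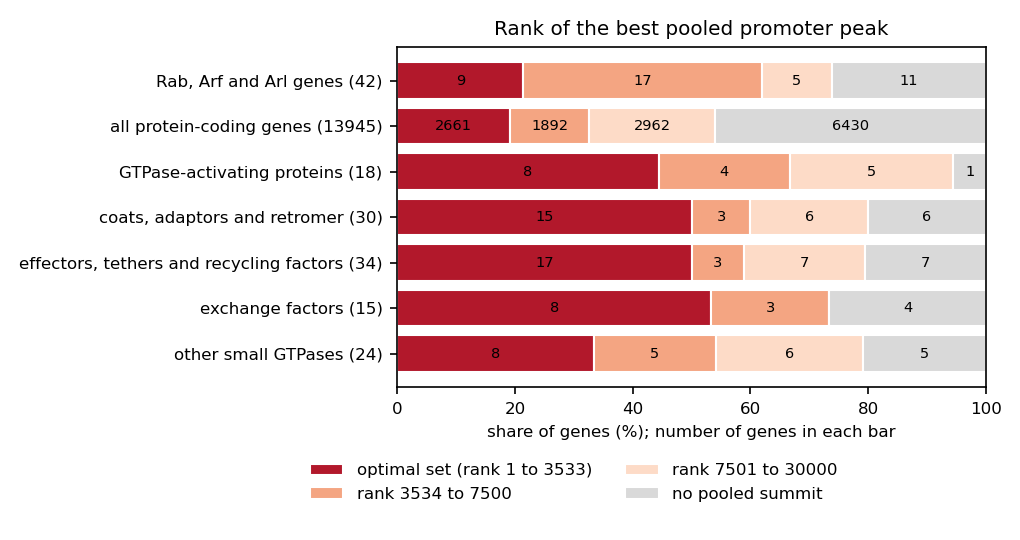
Share of genes (x axis, %) whose best pooled promoter peak was in the optimal set, at rank 3534 to 7500, at rank 7501 to 30000, or absent, for the Rab, Arf and Arl genes, all protein-coding genes and 5 lists of related genes, with the number of genes in each bar. The family has 9 genes in the optimal set and 17 in the next band, while each of the 5 lists has more genes in the optimal set than in the next band.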

How the data were processed

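ChIP-seq peak lists from 2 biological replicates of 1 line were used; per the labels chromatin was sonicated to 200 to 800 bp. Per the file notes the deposited lists are narrowPeak files on dm6, made from each library's alignment and 1 control file; the sources used here do not name the aligner, the peak caller or the reproducibility threshold. Peaks were ranked within each list by the deposited score, of unstated scale. The authors' −log10 q value was left aside because 2929 pooled peaks share its ceiling. The summit offset from the peak start is also the authors'.

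Transcript starts (23998) came from Ensembl release 115 with transposable elements left out, and sequence from RefSeq Release 6, the assembly of dm6; all peaks and genes lie within its arms. All summits within 500 bp of a start were assigned to that gene, so a peak may count for several. The assignment was tested on simulated data, where 200 of 200 summits planted at starts among 13945 genes were found. Every gene of the family is named; related genes follow a fixed rule of up to 4 bound genes per list by score, of which some are not reported here. Members, lists and motifs were chosen with earlier results of these data known. No test was made, since there is 1 group. The software was scipy 1.17.1, matplotlib 3.10.9, pandas 2.3.3 and numpy 2.4.6 under Python 3.11.15.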

Additional observations from a re-analysis of the deposited data

How the results depend on the processing

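No paired analysis was possible because there is 1 group. With the 1766 highest-scoring optimal peaks, 5 of the family's genes were bound, 3 of them at shared peaks (10.6% of all protein-coding genes were bound), all summits were upstream (100%) with a median of -147 bp, and the lists had 5 exchange factors, 5 activating proteins, 6 effectors, 9 coats and 4 other small GTPases. With a 250 bp window the background was 15.6% (45.0% for relaxed peaks), the median -98 bp, and 5 activating proteins were bound. With 1000 bp the backgrounds were 21.6% and 59.9%, and Rab18 joined the bound genes. With the nearest start only, the backgrounds were 13.4% and 44.8%, the median was -69 bp, no bound peak was shared (0), and 4 activating proteins and 4 other small GTPases were bound. From 1 replicate alone, bound genes were 6 to 11, genes at shared peaks 4 to 8, the median -128 to -105.5 bp, the upstream share 75 to 90.9%, and the relaxed background 54.2 to 54.5%. With replicate summits matched within 100 bp the median difference between replicates was 29 bp over 31 summits. The band of ranks, ended at 5000, held 6 genes against 5.44% of all genes; this end and the relaxed backgrounds were added after the data were seen. In the 100 bases at pooled summits the DRE was in 16.7% of the family's windows against 3.22% of all such windows. The cause of these changes was not tested. Depth is unknown, so the absence of a peak is not shown to be absence of binding.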
